A study of Mus musculus with 18 samples.

Results

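The DEAH-box helicase genes described here are the 10 genes Dhx8, Dhx9, Dhx15, Dhx16, Dhx29, Dhx30, Dhx35, Dhx36, Dhx37 and Dhx38, taken by symbol from a deposited table of read counts for 24062 gene symbols. The table holds 16 symbols that start with Dhx, so 6 others were not taken. The members were chosen by gene name, with Dhx16 singled out by its low counts after biallelic Ddx41 deletion, a measured value of these libraries that was known when the list was made. For that reason the FF values of Dhx16 are given as a description, without a test. All 10 genes passed the filter on low counts that left 12859 genes for testing.

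The study asked how hematopoietic progenitors respond when the DEAD-box RNA helicase Ddx41 is lost. The cells were mouse bone marrow cells without lineage markers that had been immortalized with a retrovirus carrying the leukemia fusion gene MLL-AF9 and that expressed a tamoxifen-activated Cre (Rosa-CreERT). They were grown with IL-3, SCF and IL-6 and received 1 µM 4-hydroxytamoxifen (4OHT) or its solvent, ethanol, for 48 h before total RNA was extracted. The groups are FF_4OHT (both Ddx41 alleles floxed and deleted, labelled -/-), FF_EtOH (flox/flox), Het_4OHT (+/-), Het_EtOH (+/flox), WT_4OHT (+/+) and WT_EtOH (+/+), with 3 libraries each, lettered A to C. All 18 libraries share the fusion gene and the Cre, the labels do not say how many mice or clones stand behind a genotype, and genotype and line therefore cannot be told apart. Nor do they say that the letters are separate cultures, so the spread behind the p-values may be technical.

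DEAH-box helicases use the energy of nucleoside triphosphates to move along RNA and to pull apart RNA duplexes and RNA-protein contacts. In yeast, the homologs of Dhx16, Dhx38, Dhx8 and Dhx15 act in that order on the spliceosome: they ready it for catalysis, prepare the second step, release the spliced message and take the spent particle apart. Others work on ribosome assembly, translation, mitochondrial RNA or folded RNA structures, and several are switched on by partner proteins with a G-patch motif. Ddx41 belongs to the related DEAD-box family and has itself been linked to splicing and to inherited myeloid malignancy.

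Library totals ran between 24730213 counts (FF_4OHT C) and 49277884 counts (Het_EtOH A), and the members had between 826 counts (Dhx35 in FF_EtOH C) and 25925 counts (Dhx9 in Het_EtOH A) in a library. Levels are CPM, that is counts relative to the library total, adjusted with TMM factors that align the bulk of genes between libraries. A pair of libraries lay with another line than the one on its label, when each library was correlated with line means made without that pair. The library labelled FF_EtOH C had a correlation of log2 CPM over all tested genes of 0.970 with the FF mean and 0.994 with the WT mean, and the Y-linked gene Eif2s3y was at 86.3 CPM there and at 0 in the other 5 FF libraries. The library labelled WT_4OHT C had 0.984 with the FF mean and 0.966 with the WT mean, and its Eif2s3y was at 0, against 66.4 to 101 CPM in the other 5 WT libraries. The members' FF fold changes and counts of calls are given with and without them, while levels, overlaps between groups, orders and spreads cover all 18 libraries as labelled. The progenitor markers (Ptprc, Kit, Spi1, Cd34, Mpo, Hoxa9 and Meis1) summed to 1410 to 1818 CPM in FF_4OHT and 1691 to 3369 CPM in FF_EtOH. Among them only Mpo stood apart, with 548, 324 and 205 CPM in FF_4OHT, against 1594, 601 and 2181 CPM in FF_EtOH. The FF groups overlapped for each of the others, and Ptprc had 440, 431 and 380 CPM in FF_4OHT, against 320, 392 and 364 CPM in FF_EtOH. The 5 monocyte and macrophage markers found in the table summed to 1831 to 2387 CPM in FF_4OHT and 727 to 773 CPM in FF_EtOH, and the ribosomal precursor Rn45s was at 5987 to 41160 CPM in FF_4OHT and 3828 to 6464 CPM in FF_EtOH. Of the other lists, 3 of 4 erythroid markers (Hba-a1 and Hbb-bs among them), 1 of 3 megakaryocyte markers (Pf4), 3 of 4 lymphoid markers (Cd3e and Cd79a among them) and 1 of 4 stromal markers (Cxcl12) stayed below 1 CPM in all 18 libraries. The summed megakaryocyte markers were at 5.63 to 9.57 CPM in FF_4OHT and 1.998 to 3.26 CPM in FF_EtOH, and the lymphoid ones at 4.12 to 6.26 CPM in FF_4OHT and 8.16 to 11.8 CPM in FF_EtOH. The stromal sum was 14.9 to 19.6 CPM in Het_EtOH and 1.74 to 5.36 CPM in WT_EtOH, most of it from Pdgfrb in Het. Larger differences between these groups were in the progenitor sum (965 to 997 against 3561 to 5145 CPM) and the neutrophil sum (87.4 to 214 against 886 to 1069 CPM). Most of the progenitor gap came from Mpo, with 136, 92.4 and 123 CPM in Het_EtOH, against 3790, 3779 and 2441 CPM in WT_EtOH. Kit, Spi1, Hoxa9 and Meis1 were also lower in Het_EtOH without overlap, while Ptprc and Cd34 overlapped. The mast cell sums overlapped (27.6 to 32.3 against 27.5 to 33.6 CPM), but Mcpt8 and Hdc in them differed in opposite directions. Mcpt8 had 20.7, 21.9 and 16.2 CPM in Het_EtOH, against 6.83, 5.52 and 5.68 CPM in WT_EtOH. Hdc had 5.03, 6.91 and 10.5 CPM in Het_EtOH, against 22.7, 22.2 and 19.3 CPM in WT_EtOH. Cpa3 and Ms4a2 overlapped. In FF cells the neutrophil sum was 712 to 1245 CPM in FF_4OHT and 439 to 1146 CPM in FF_EtOH. The part of these markers and of Rn45s in the members' values was not tested, and in bulk RNA fewer cells of a type and less RNA per cell cannot be told apart.

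Ddx41, the targeted gene, had 14.6, 16.5 and 17.7 CPM in FF_4OHT, against 112, 82.0 and 73.7 CPM in FF_EtOH, and fell to 18.2% of the ethanol level (log2 fold change -2.45 ± 0.17 SE, edgeR adjusted p = 8.09e-07, and -2.58 with FF_EtOH C and WT_4OHT C left out). Ddx41 had 58.4, 43.0 and 41.3 CPM in Het_4OHT, against 71.3, 68.0 and 79.1 CPM in Het_EtOH. The Het libraries did not overlap, and the log2 fold change of -0.61 ± 0.16 SE did not pass the test over all genes (edgeR adjusted p = 0.86).

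Dhx16, the homolog of the yeast helicase that readies the spliceosome for its first catalytic step, lies at chr17:35879819-35892670 on the plus strand (GRCm38, GENCODE M21), is protein coding and has 19 exon blocks that overlap no exon of another gene. It was low in FF_4OHT and in no other group. Dhx16 had 38.5, 38.1 and 35.2 CPM in the FF_4OHT libraries A to C, against 128, 111 and 114 CPM in FF_EtOH. It had 112, 102 and 107 CPM in Het_4OHT and 101, 96.0 and 106 CPM in Het_EtOH, and 116, 126 and 130 CPM in WT_4OHT and 119, 112 and 135 CPM in WT_EtOH. The 3 FF_4OHT libraries therefore stood below the other 15, which ranged from 96.0 to 135 CPM. These levels rest on 847 to 1172 counts per FF_4OHT library.

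**Figure D1:**
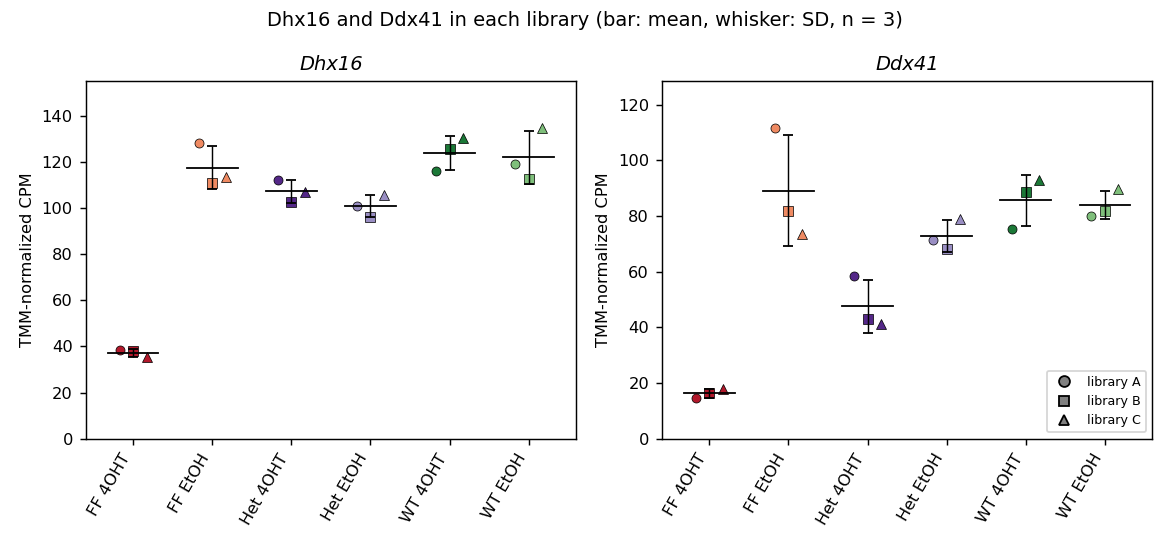
TMM-normalized CPM of Dhx16 (left panel) and Ddx41 (right panel) in each library of the 6 groups, with 4OHT left of ethanol within each line; bars are means and whiskers SD (n = 3). Dhx16 is at 35.2 to 38.5 CPM in FF_4OHT and at 96.0 to 135 CPM in all other libraries, while Ddx41 is also lower in Het_4OHT than in Het_EtOH.

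Dhx16 averaged 37.3 ± 1.78 CPM in FF_4OHT and 118 ± 9.32 CPM in FF_EtOH (SD, n = 3 each), which is 31.7% of the ethanol level and a log2 difference of -1.66 ± 0.10 SE (2 SE on either side give -1.85 to -1.46). Among the 12859 genes this was the 123rd largest fall, a rank given as a description because Dhx16 was singled out for its low FF_4OHT counts. With FF_EtOH C and WT_4OHT C left out the difference was -1.68, and over all 29 alternative analyses it ranged from -1.70 to -1.59. In Het cells, where Ddx41 was at 65.4% of the ethanol level, Dhx16 averaged 107 ± 4.82 CPM in Het_4OHT and 101 ± 4.79 CPM in Het_EtOH (log2 fold change 0.09 ± 0.10 SE, edgeR adjusted p = 1). The Dhx16 mean of WT cells was 124 ± 7.34 CPM in WT_4OHT and 122 ± 11.6 CPM in WT_EtOH (log2 fold change 0.02 ± 0.10 SE, edgeR adjusted p = 1, and -0.01 without the same 2 libraries). The 2-SE range was -0.10 to 0.28 in Het cells and -0.17 to 0.21 in WT cells. The FF response minus the WT response was -1.68 ± 0.14, and the FF response minus the Het response was -1.74 ± 0.14 (log2, SE). These 2 differences share the FF libraries.

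To show what surrounds the start of Dhx16, the 250 bases before the start of transcription are printed below for Dhx16 and for 2 other members, Dhx9 and Dhx35, that hold the same pair of short motifs, from RefSeq (GRCm38.p6). The windows are chr17:35879528-35879777 (plus strand) for Dhx16, chr1:153487661-153487910 (minus strand) for Dhx9 and chr2:158794557-158794806 (plus strand) for Dhx35, each written 5′ to 3′ on the gene's strand. Capitals mark matches to the ETS core CCGGAA, the GC box GGGCGG, the CCAAT box CCAAT and the E box CACGTG on either strand, so that a match on the reverse strand shows its reverse complement, and no 2 matches overlap in these windows.
Dhx16: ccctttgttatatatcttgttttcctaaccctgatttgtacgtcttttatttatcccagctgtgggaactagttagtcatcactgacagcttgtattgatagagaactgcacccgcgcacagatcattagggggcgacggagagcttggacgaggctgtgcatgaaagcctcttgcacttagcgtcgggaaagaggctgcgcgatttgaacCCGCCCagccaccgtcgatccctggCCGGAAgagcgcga
Dhx9: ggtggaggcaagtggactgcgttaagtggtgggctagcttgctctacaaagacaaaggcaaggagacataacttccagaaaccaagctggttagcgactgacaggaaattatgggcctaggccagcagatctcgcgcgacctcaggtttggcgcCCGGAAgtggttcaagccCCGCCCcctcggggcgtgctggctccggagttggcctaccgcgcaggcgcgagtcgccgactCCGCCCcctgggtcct
Dhx35: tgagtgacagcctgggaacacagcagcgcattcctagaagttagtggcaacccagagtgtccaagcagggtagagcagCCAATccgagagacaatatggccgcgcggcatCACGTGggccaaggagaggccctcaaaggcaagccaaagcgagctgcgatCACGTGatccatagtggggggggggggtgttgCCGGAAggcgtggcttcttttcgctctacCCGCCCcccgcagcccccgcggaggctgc
The ETS core and the GC box stand in all 3 windows because Dhx9 and Dhx35 were chosen for them. Dhx36 and Dhx37 held both as well and are not printed. RefSeq windows were found for 9 of the 10 members. The ETS core was matched in 6 of them (Dhx9, Dhx16, Dhx30, Dhx35, Dhx36 and Dhx37) and in 12.1% of all 32536 promoter windows. The GC box was also matched in 6 (Dhx9, Dhx15, Dhx16, Dhx35, Dhx36 and Dhx37), against 32.97% of all windows, and the CCAAT box in 3 (Dhx15, Dhx29 and Dhx35), against 33.8%. The palindromic NRF1 site was matched in Dhx37 alone (0.784% of all windows), the E box in Dhx35 alone (6.04%), the cAMP response element TGACGTCA in Dhx36 alone (1.56%), and the YY1 core AAGATGGC in none (1.57%). A member counted as matched if any of its windows held the motif, while the share over all windows was taken per window. Dhx30 had a further window without a match. The windows of the members had a median GC content of 62.4%, against 52.4% over all windows, and the Dhx16 window had 52%. A match describes the letters of a window and is no evidence of binding.

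None of the other spliceosomal members passed the test in FF cells. Dhx38, the homolog of the yeast helicase that remodels the spliceosome before the second step (chr8:109548011-109565861, minus strand), had 217, 202 and 213 CPM in FF_4OHT, against 219, 167 and 161 CPM in FF_EtOH. The highest library was an ethanol one and the groups overlapped (log2 fold change 0.21 ± 0.12 SE, edgeR adjusted p = 0.274). Dhx8, whose yeast homolog releases the spliced message (chr11:101732919-101767358, plus strand), had 83.6, 94.6 and 105 CPM in FF_4OHT, against 76.3, 87.0 and 93.8 CPM in FF_EtOH. These groups overlapped too (log2 fold change 0.14 ± 0.12 SE, edgeR adjusted p = 0.487). Dhx15, which dismantles spent spliceosomes and also serves ribosome assembly (chr5:52150203-52190514, minus strand), had 492, 481 and 417 CPM in FF_4OHT, against 577, 458 and 445 CPM in FF_EtOH. Its log2 fold change was -0.09 ± 0.19 SE with overlapping groups (edgeR adjusted p = 0.806). Dhx35, found in purified human catalytic spliceosomes (chr2:158794807-158858214, plus strand), had 38.0, 41.03 and 39.0 CPM in FF_4OHT, against 41.4, 38.7 and 31.3 CPM in FF_EtOH. Its log2 fold change was 0.08 ± 0.11 SE (edgeR adjusted p = 0.682) and -0.03 with FF_EtOH C and WT_4OHT C left out. The ranges of 2 SE reach from -0.03 to 0.45 for Dhx38, -0.10 to 0.38 for Dhx8, -0.48 to 0.29 for Dhx15 and -0.14 to 0.31 for Dhx35.

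**Figure D2:**
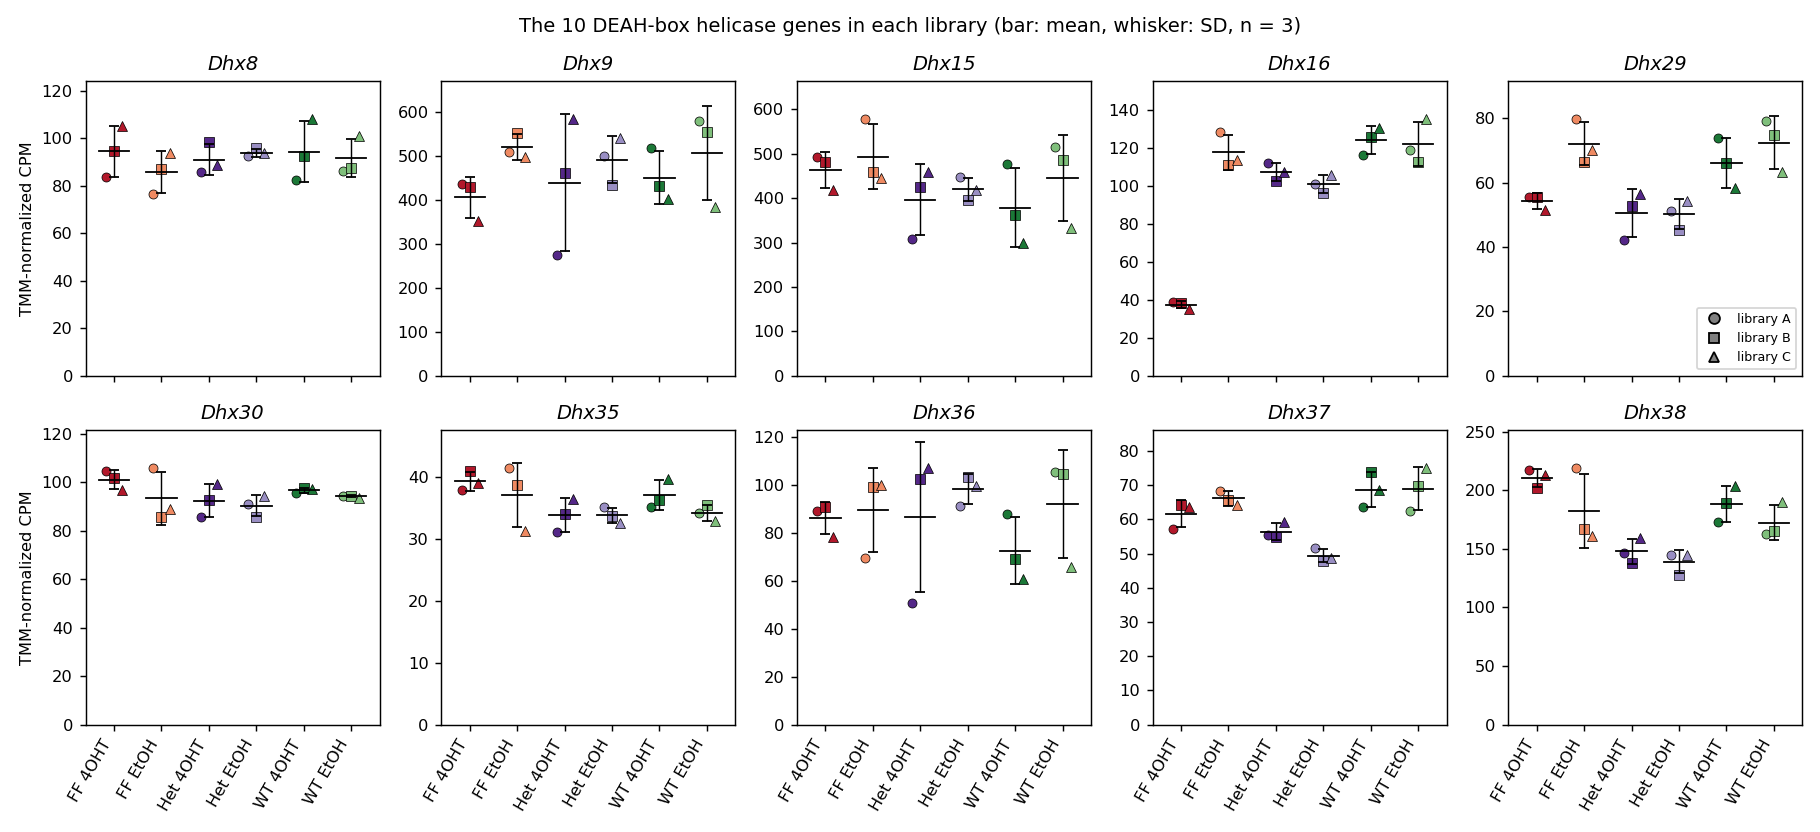
TMM-normalized CPM of the 10 DEAH-box helicase genes in each library of the 6 groups, with 4OHT left of ethanol within each line; bars are means and whiskers SD (n = 3), and each panel has its own axis from 0. Dhx16 stands out in FF_4OHT, Dhx9, Dhx15 and Dhx36 scatter within groups, and Dhx29 and Dhx37 are lower in Het_EtOH than in WT_EtOH.

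Of the members outside the spliceosome, Dhx29 came nearest to the threshold. Dhx29 helps the small ribosomal subunit pass structured leaders during translation initiation (chr13:112927454-112969432, plus strand). It had 55.6, 55.6 and 51.4 CPM in FF_4OHT, against 79.6, 66.5 and 70.1 CPM in FF_EtOH. All FF_4OHT libraries lay below all FF_EtOH libraries, and the log2 fold change of -0.41 ± 0.13 SE had an edgeR adjusted p of 0.0503, just above 0.05. It passed in 6 of 29 alternative analyses, among them DESeq2 (adjusted p = 0.035), the fit to the FF libraries alone (edgeR adjusted p = 0.0409) and the fits without Het_4OHT A (0.0191), Het_4OHT C (0.0478) or WT_4OHT C (0.0432, edgeR adjusted p). Without both libraries that lie with another line it was -0.43 (edgeR adjusted p = 0.0711). The Dhx29 response of FF differed from that of WT by -0.28 ± 0.19 SE (edgeR adjusted p = 0.509) and from that of Het by -0.42 ± 0.19 SE (edgeR adjusted p = 0.277), so neither difference passed, nor did they with FF_EtOH C and WT_4OHT C left out (-0.39 and -0.44, edgeR adjusted p = 0.427 and 0.264).

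Dhx9 unwinds RNA duplexes and RNA-DNA hybrids and acts in transcription (chr1:153455758-153487660, minus strand). It had 437, 431 and 352 CPM in FF_4OHT, against 509, 554 and 498 CPM in FF_EtOH. The groups did not overlap, but the log2 fold change of -0.36 ± 0.22 SE did not pass (edgeR adjusted p = 0.307). Dhx36, which resolves G-quadruplex structures (chr3:62468013-62507004, minus strand), had 89.2, 91.0 and 78.5 CPM in FF_4OHT, against 69.4, 99.3 and 100.1 CPM in FF_EtOH. The FF_EtOH libraries spanned all FF_4OHT ones, and the log2 fold change was -0.06 ± 0.24 SE (edgeR adjusted p = 0.911).

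Dhx37, whose yeast homolog frees the U3 small nucleolar RNA from the forming small ribosomal subunit (chr5:125413858-125434121, minus strand), had 57.2, 64.3 and 63.7 CPM in FF_4OHT, against 68.4, 65.7 and 64.3 CPM in FF_EtOH. The ranges met at their edges, and the log2 fold change was -0.10 ± 0.10 SE (edgeR adjusted p = 0.543). Dhx30, needed in mitochondria for ribosome assembly (chr9:110084320-110117830, minus strand), had 105, 102 and 97.0 CPM in FF_4OHT, against 106, 85.5 and 88.9 CPM in FF_EtOH. Its groups overlapped as well (log2 fold change 0.12 ± 0.09 SE, edgeR adjusted p = 0.456). An exon of Smarcc1 on the opposite strand covers 1.16% of the exon length of Dhx30, and stretches of at least 100 bases with at least 95% identity to other genes were found in Dhx9 (longest 167 bases), Dhx30 (197) and Dhx37 (166), so small parts of their counts may be shared.

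In FF cells 1 of the 10 members, Dhx16, was called lower and 0 were called higher, against 8.29% and 5.16% of all tested genes (edgeR adjusted p under 0.05), and since Dhx16 was known in advance nothing is read from that count. The members' median log2 fold change was -0.07, against -0.02 over all tested genes. With FF_EtOH C and WT_4OHT C left out, the FF log2 fold changes were -0.39 for Dhx9, 0.21 for Dhx8, -0.16 for Dhx15, 0.08 for Dhx30, 0.031 for Dhx36, -0.12 for Dhx37 and 0.13 for Dhx38, and none of these passed. In 3 members (Dhx16, Dhx29 and Dhx9) all FF_4OHT libraries were below all FF_EtOH libraries, as in 21.5% of all tested genes, and in 0 members they were above, against 18.7%. In Het cells 0 members were called, against 0.0156% of all genes in either direction, and in WT cells 0, against 0.0% of all genes. No member reached an unadjusted p under 0.05 in either of these lines, and DESeq2 and limma voom called 0 members in both. The median of the members was 0.01 in Het cells and 0.01 in WT cells, against 0.00 over all genes in each. Groups without overlap were seen in 1 member each, Dhx37 in Het (55.3, 54.7 and 59.2 CPM in Het_4OHT, against 51.7, 47.9 and 48.8 CPM in Het_EtOH; 2.23% of all genes were higher in this way, and 2.71% lower) and Dhx30 in WT (95.6, 97.5 and 97.3 CPM in WT_4OHT, against 94.6, 94.5 and 93.8 CPM in WT_EtOH; 2.85% of all genes were higher and 1.97% lower). Between the FF and WT responses 1 member was called, Dhx16, as lower, against 1.89% of all genes called lower and 0.412% called higher, and between the FF and Het responses likewise Dhx16, against 2.09% and 0.404%, and nothing is read from these counts either. With FF_EtOH C and WT_4OHT C left out, 1 member was called in FF, 0 in Het, 0 in WT and 1 in each of the 2 differences between responses. The Dhx37 response differed between FF and Het by -0.29 ± 0.14 SE, which did not pass (edgeR adjusted p = 0.302).

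**Figure D3:**
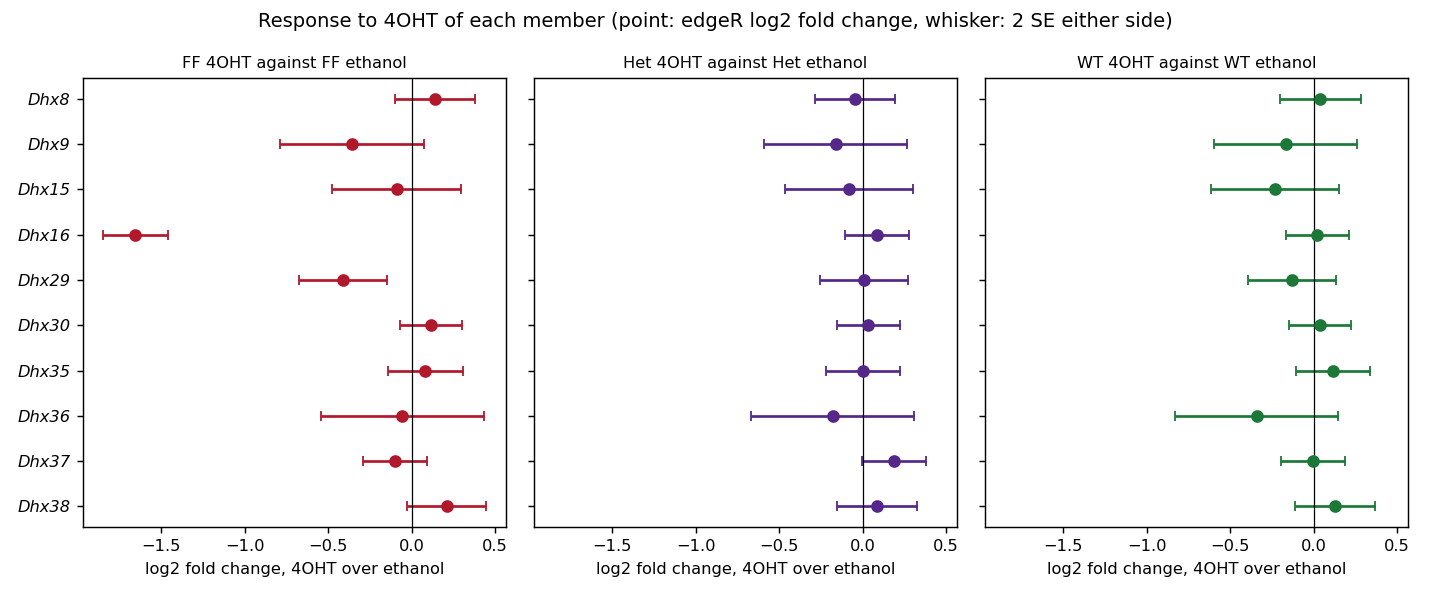
Log2 fold change of 4OHT over ethanol for each of the 10 members in FF (left), Het (middle) and WT cells (right); points are edgeR estimates and whiskers 2 SE on either side. Dhx16 lies at -1.66 in FF and near 0 in the other lines, and the remaining FF values lie between -0.41 and 0.21.

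The lines also differed before induction. In ethanol, 3 members were called lower in Het_EtOH than in WT_EtOH and 0 higher, against 10.4% and 13.3% of all tested genes. With FF_EtOH C and WT_4OHT C left out, 2 members were called lower, Dhx29 and Dhx37, and 0 higher. Dhx37 had 51.7, 47.9 and 48.8 CPM in Het_EtOH, against 62.5, 69.7 and 74.9 CPM in WT_EtOH, with no overlap (log2 fold change -0.48 ± 0.10 SE, edgeR adjusted p = 0.00164), and was called in all 28 alternative analyses. Dhx29 had 51.1, 45.2 and 54.2 CPM in Het_EtOH, against 79.0, 74.9 and 63.1 CPM in WT_EtOH, again with no overlap (log2 fold change -0.53 ± 0.13 SE, edgeR adjusted p = 0.00799). Its call was lost without Het_EtOH B (edgeR adjusted p = 0.0833). Dhx16 was called lower by -0.27 ± 0.10 (edgeR adjusted p = 0.0475), a call kept in only 6 of 28 alternatives and lost with a replicate block (edgeR adjusted p = 0.0542). The difference was -0.14 when libraries were scaled by their totals alone and -0.15 without WT_EtOH C, the highest Dhx16 library of the series. Dhx38 had 144.5, 128 and 145 CPM in Het_EtOH, against 163, 165 and 189.9 CPM in WT_EtOH. Its libraries did not overlap either, but -0.31 ± 0.12 SE did not pass (edgeR adjusted p = 0.0728, and 0.0284 without FF_EtOH A). Libraries without overlap in this direction were found in 22.8% of all genes, and with scaling by library totals the calls over all genes split into 2185 higher and 900 lower, in place of 1714 and 1335, while the median of all genes was 0.10 in place of -0.03.

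Between FF_EtOH and WT_EtOH 0 members were called, against 0.0% of all genes, and no member had an unadjusted p under 0.05 by edgeR, DESeq2 or limma voom. In 0 members did the libraries of the lines stand apart, against 4.11% of all genes higher and 4.95% lower in FF_EtOH. With FF_EtOH C and WT_4OHT C left out the count of members stayed at 0, while 418 genes were called higher and 196 lower over all genes. Dhx16 differed by -0.05 ± 0.10 SE between the uninduced FF and WT lines (edgeR adjusted p = 1).

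To set the members side by side, levels were divided by the length of each gene's merged exons (CPM per kb). Merged exons can be far longer than a transcript: 10616 bases in Dhx30, whose longest transcript has 4623. In Dhx16 they are 4094 and 3351 bases. The ranks below therefore depend on the length used, and ranks by transcript length were not made. In FF_EtOH the order was Dhx15 (58.1 ± 8.60 CPM per kb), Dhx9 (54.2 ± 3.08), Dhx38 (36.7 ± 6.38), Dhx16 (28.7 ± 2.28), Dhx8 (17.03 ± 1.75), Dhx37 (13.2 ± 0.42), Dhx29 (11.99 ± 1.13), Dhx30 (8.80 ± 1.02), Dhx36 (8.77 ± 1.71) and Dhx35 (7.19 ± 1.01, SD, n = 3). Neighbours in that order whose libraries overlapped were Dhx15 with Dhx9, Dhx37 with Dhx29, Dhx30 with Dhx36, and Dhx36 with Dhx35. Dhx16 held rank 4 in 5 groups, and its libraries lay above those of Dhx8 in each of them. In FF_4OHT it held rank 7, at 9.11 ± 0.44 CPM per kb, and overlapped with Dhx30 (9.53 ± 0.37) and Dhx29 (9.01 ± 0.40). Dhx15, Dhx9 and Dhx38 held the top 3 ranks in all 6 groups, and Dhx35 came last in all but WT_4OHT, where Dhx36 did.

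**Figure D4:**
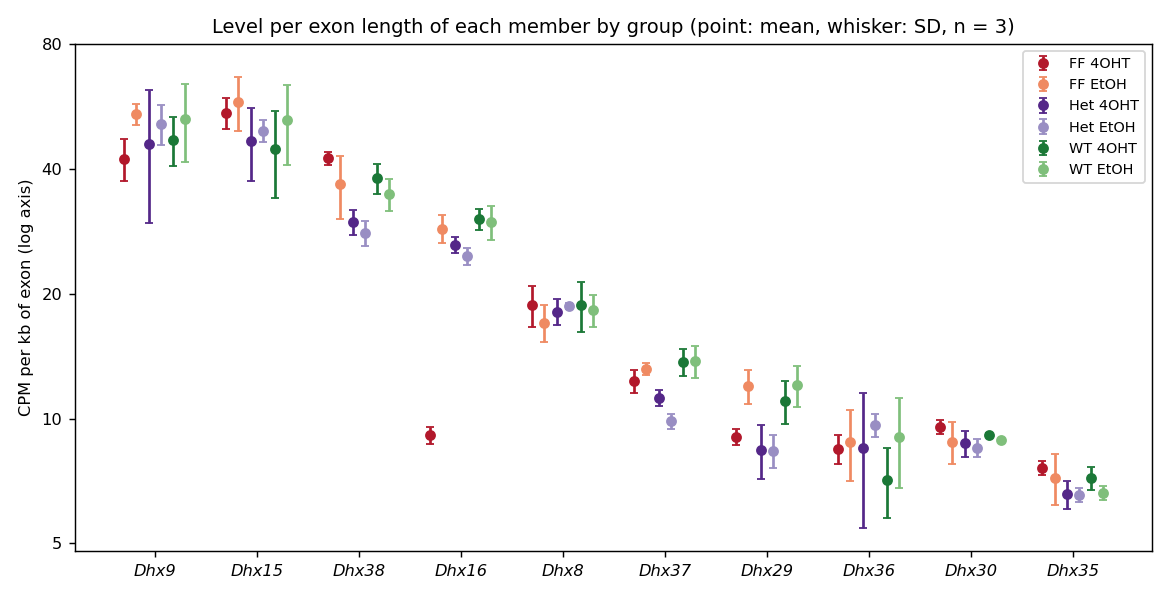
Level of each member per kb of exon on a log axis, by group; points are means and whiskers SD (n = 3). Dhx16 is at 24.6 to 30.3 CPM per kb in 5 groups and at 9.11 CPM per kb in FF_4OHT, next to Dhx30 and Dhx29 by merged exon length.

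The members differed in how steady they were within groups. The pooled SD of log2 CPM within groups was 0.09 for Dhx16, Dhx37 and Dhx30, 0.11 for Dhx35, 0.14 for Dhx8 and Dhx38, 0.16 for Dhx29, 0.25 for Dhx15, 0.29 for Dhx9 and 0.34 for Dhx36, against a median of 0.26 over all tested genes. The scatter of Dhx36 and Dhx9 was widest in Het_4OHT, where library A had 50.8 CPM of Dhx36 and 274 CPM of Dhx9, while library C had 107 and 584 CPM. Dhx15 was also lowest in library A of that group, with 307, 424 and 458 CPM in Het_4OHT. Among the libraries labelled WT the C ones were low, though WT_4OHT C is the library that lies with the FF line. Dhx15 had 476, 362 and 299 CPM in WT_4OHT and 514, 487 and 334 CPM in WT_EtOH. Dhx9 likewise had 518, 432 and 403 CPM in WT_4OHT and 580.0, 556 and 384 CPM in WT_EtOH. Het_4OHT A had a mean correlation of 0.959 with its group, the lowest of the 18.

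Other genes of the same pathways were taken from lists chosen with earlier results of these data known. Their counts stand against 8.29% of all tested genes called lower and 5.16% called higher in FF cells, and their medians against -0.02 over all tested genes. DESeq2 called 1282 of the 12859 genes lower and 993 higher in FF cells. Among other DExH-box genes, 12 were tested, 1 was called lower in FF cells, a share near that over all genes, and 0 were called higher. DESeq2 called 1 lower and 1 higher. Skiv2l, a helicase of the cytoplasmic RNA exosome pathway, had 67.0, 70.6 and 69.4 CPM in FF_4OHT, against 91.7, 94.7 and 102 CPM in FF_EtOH (log2 fold change -0.48 ± 0.10 SE, edgeR adjusted p = 0.00425), and was called in all 29 alternatives. The list's median was -0.13. Of 20 G-patch proteins and other activators, 2 were called higher and 0 lower, with a median of 0.02, while DESeq2 called 3 higher and 1 lower. Gpatch3 had 19.6, 17.6 and 21.0 CPM in FF_4OHT, against 11.2, 10.7 and 10.6 CPM in FF_EtOH (log2 fold change 0.84 ± 0.21 SE, edgeR adjusted p = 0.016, and 0.062 without FF_4OHT C). Gpkow, the mammalian counterpart of the yeast partner that activates the Dhx16 homolog, had 80.5, 81.0 and 83.3 CPM in FF_4OHT, against 53.6, 61.2 and 74.1 CPM in FF_EtOH. It was called higher (log2 fold change 0.37 ± 0.12 SE, edgeR adjusted p = 0.0462), but in only 13 of 29 alternatives, with 0.27 (edgeR adjusted p = 0.169) without FF_EtOH A.

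Of 9 DEAD-box and other NTPases of the spliceosome, edgeR called 1 lower and 0 higher, with a median of 0.03, and DESeq2 1 lower and 1 higher. The edgeR call was Eftud2, the GTPase of the U5 particle, with 202, 212 and 195 CPM in FF_4OHT, against 268, 267 and 243 CPM in FF_EtOH (log2 fold change -0.36 ± 0.09 SE, edgeR adjusted p = 0.0141, and 0.0841 without FF_4OHT C). Of 22 factors of the catalytic spliceosome and the second step, edgeR called 0, with 3 at an unadjusted p under 0.05, while DESeq2 called 2 higher and limma voom 0. Their median was 0.11, and the 2 most abundant, Prpf19 and Snw1, had log2 fold changes of -0.18 ± 0.11 SE (edgeR adjusted p = 0.299) and 0.32 ± 0.12 SE (edgeR adjusted p = 0.101). Of 14 small subunit processome partners of Dhx37, 2 were called lower and 0 higher, with a median of -0.13, against 8.29%, 5.16% and -0.02 over all genes. DESeq2 also called 2 lower and 0 higher. Bms1, a GTPase of that particle, had 133, 137 and 125 CPM in FF_4OHT, against 189, 187 and 174 CPM in FF_EtOH (log2 fold change -0.48 ± 0.08 SE, edgeR adjusted p = 0.00194), and was called in all 29 alternatives. Wdr46 had 59.97, 66.6 and 59.0 CPM in FF_4OHT, against 113, 85.9 and 82.8 CPM in FF_EtOH (log2 fold change -0.60 ± 0.15 SE, edgeR adjusted p = 0.016), and its call was lost without FF_4OHT A (0.0544), FF_4OHT C (0.0752) or FF_EtOH A (0.0774, edgeR adjusted p). No gene of these 5 lists was called in Het or WT cells by edgeR, and 0 had an unadjusted p under 0.05 there. In the FF response minus the WT response, 1 other DExH-box gene and 1 processome partner were called lower, against 1.89% of all genes. With FF_EtOH C and WT_4OHT C left out, both counts were 0. In the FF response minus the Het response, 2 processome partners were called lower, against 2.09%. All other edgeR counts in these differences were 0, so most calls in FF were not shown to be particular to FF.

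The genes whose values were most like those of Dhx16 were found by the root mean square difference of log2 CPM, centred on each gene's own mean, over the 18 libraries and 9652 genes with a mean of at least 5 CPM. They were Haus5 (0.19), Ccdc101 (0.20), Ccdc107 (0.21), Pced1a (0.21) and Ankle1 (0.22). Their FF log2 differences, to which this choice is tied, were -1.19, -1.49, -1.70, -1.21 and -1.49. Haus5 averaged 30.8 CPM in FF_4OHT and 70.3 CPM in FF_EtOH, and 60.3 to 83.4 CPM in the other 4 groups. Ddx41 stood at rank 124 (0.36). The member nearest to Dhx16 was Dhx29, at rank 2348 (0.57).

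**Figure D5:**
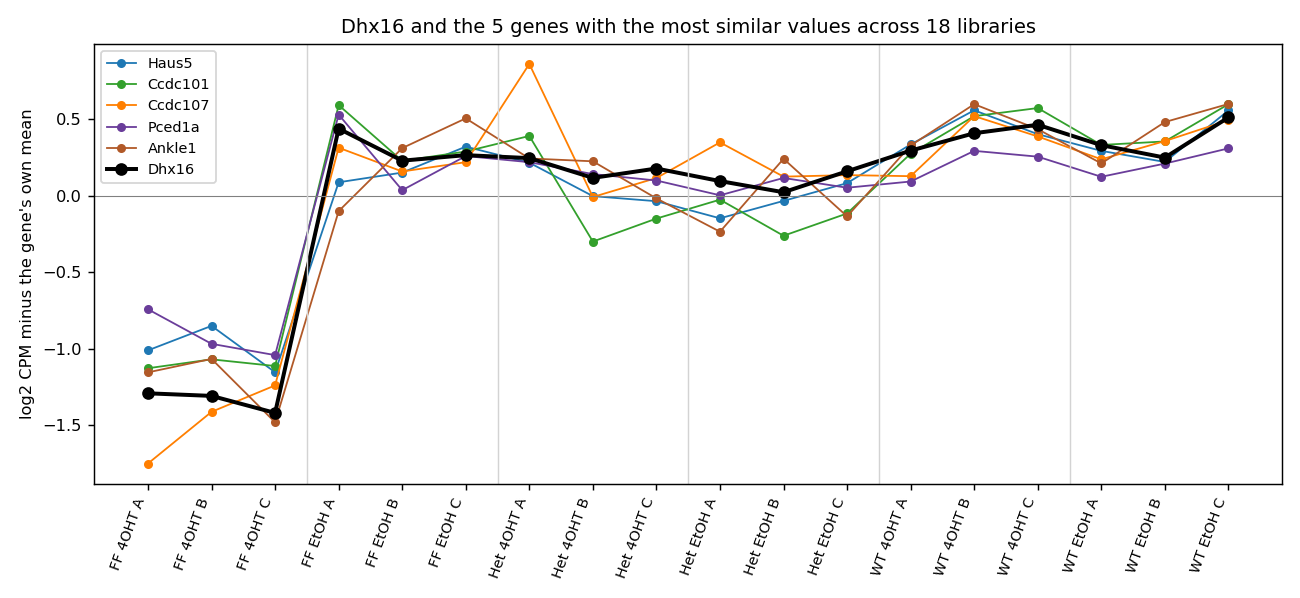
Log2 CPM of Dhx16 (black) and of the 5 genes most like it, each minus its own mean over the 18 libraries, which run along the axis by group with 4OHT before ethanol. All 6 genes are low in the 3 FF_4OHT libraries, and the 5 were chosen for this likeness.

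The 3 tested genes on each side of Dhx16 on chromosome 17 were examined after its values had been seen. Nrm, which ends 14.4 kb before Dhx16, averaged 20.3 CPM in FF_4OHT and 35.9 CPM in FF_EtOH and was called lower (log2 fold change -0.82 ± 0.15 SE, edgeR adjusted p = 0.00208, called in all 29 alternatives). The other 5 did not pass. Since 8.29% of all tested genes were called lower in FF cells, nothing is read from the call of Nrm. Ppp1r18, which lies between Nrm and Dhx16, had 0.21 ± 0.18 SE (edgeR adjusted p = 0.485), and 2310061I04Rik, which ends within 0.007 kb of Dhx16 on the opposite strand, had -0.48 ± 0.21 SE (edgeR adjusted p = 0.151). Mdc1 had -0.48 ± 0.19 SE (edgeR adjusted p = 0.11), Atat1 0.16 ± 0.22 SE and Mrps18b -0.22 ± 0.21 SE (edgeR adjusted p = 0.693 and 0.547).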

How the data were processed

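RNA was sequenced in 18 libraries, 3 in each of 6 groups. The deposited table holds raw read counts per gene symbol. Per the submitters' processing notes, the authors' tools included featureCounts 1.5.2 (Subread), HISAT2 2.0.5, FastQC 0.11.7 and CASAVA 1.4, with the mm10 build. Strand setting, annotation and treatment of multiply matching reads were not given in the sources used here. Strand could matter for a gene with an opposite-strand neighbour.

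No 2 of the 153 library pairs held identical counts, and the smallest mean chi-square per gene was 9.53, so each library was counted once. Counts were tested with edgeR 4.0.16 in R 4.3.3 (TMM, filterByExpr with a minimum count of 10, robust quasi-likelihood F test) in 1 model of the 6 group means over all 18 libraries, on 12859 genes, with Benjamini-Hochberg adjustment over all of them and a threshold of 0.05. The SE of a log2 fold change was derived from the F statistic. Prior count for log2 CPM was 2. In these libraries 1 count is worth 0.0203 to 0.0404 CPM. Symbols were matched to GENCODE M21 (22708 of 24062 matched 1 gene, all 10 members among them). The script was tested on simulated counts.

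The members, lists and tests were chosen with earlier results of these data known. Named genes are the members, Ddx41, up to 4 called genes per list by adjusted p (or its 2 most abundant), and the 5 genes most like Dhx16. Other DExH-box genes and NTPases share Snrnp200, G-patch proteins share Tfip11 and Utp14a with other lists, and 14 and 15 symbols were listed for DExH-box genes and processome partners.

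Because the same letters recur in every group, deviations from the group means were compared between libraries of 1 letter. The correlations for A, B and C were 0.48, 0.70 and 0.40 in Het, 0.17, 0.18 and 0.07 in FF, and 0.39, -0.02 and 0.25 in WT. They were highest in Het, but A in WT came close to C in Het. Libraries of unlike letters were not compared, and the C values of FF and WT include FF_EtOH C and WT_4OHT C. Whether the letters are pairs in any line therefore stays unsettled. Alternatives were DESeq2 size factors, library size scaling, other filters, DESeq2 1.42.0, limma 3.58.1 voom, the compared groups alone, a replicate block, and fits without single or doubted libraries. A replicate block within each line and the neighbours of Dhx16 were added after seeing the data.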

Additional observations from a re-analysis of the deposited data

Results flagged for a closer look

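The response of Dhx16 to 4OHT is listed here for its difference between lines. The log2 response to 4OHT was -1.66 in FF cells and 0.02 in WT cells, a difference of -1.68 ± 0.14 SE, and 0.09 in Het cells, a difference of -1.74 ± 0.14 SE from FF. The gene was known for this fall when the list was made, so these are descriptions and support nothing. With FF_EtOH C and WT_4OHT C left out the differences were -1.67 from WT and -1.77 from Het.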

How the results depend on the processing

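Over the 29 alternatives the FF difference of Dhx16, a description, ranged from -1.70 to -1.59, its difference from the WT response from -1.75 to -1.61 and that from the Het response from -1.78 to -1.67. The count of FF members called was 2, with Dhx29 as the added gene, in the fit to the compared groups alone, with DESeq2 and with a replicate block within each line, and 1 to 2 when single libraries were left out. With the replicate block over all 18 libraries Dhx16 in Het was 0.09 and 0 Het members were called, as in the fit without it, and in Het_EtOH against WT_EtOH the block ended the Dhx16 call (-0.27, edgeR adjusted p = 0.0542) and left 2 members called, Dhx29 and Dhx37. The count of members called in Het_EtOH against WT_EtOH was 1 to 4 when single libraries were left out. Values near 0 changed sign: without the 2 libraries that lie with another line, and without these and WT_EtOH C, Dhx35 in FF was -0.027 and -0.023, and Dhx36 in FF was 0.031 and 0.034, while Dhx16 in WT was -0.015 without the 2. With single libraries left out, Dhx35 in FF ran from -0.027 to 0.17, Dhx36 from -0.21 to 0.030, Dhx15 from -0.16 to 0.036, and Dhx16 in WT from -0.033 to 0.10. None of these values passed the test, and the cause of the sign changes was not tested. Counts over all genes moved more: 700 (without FF_4OHT C) to 2763 (replicate block within each line) in FF against 1729, 72 (without 3 libraries) to 648 (DESeq2) for FF minus WT against 296, 57 (compared groups alone) to 755 (replicate block within each line) for FF minus Het against 321, 0 to 17 (DESeq2) in Het against 2, 0 to 4 in WT against 0, and 0 to 614 for FF_EtOH against WT_EtOH. A fit without 1 library pools the spread over all groups. Depth limited no member, since each had at least 826 counts in every library.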
